A study of Macaca fascicularis with 2 samples.

Results

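SOST TOX3 CRYM cells are single cells of fetal Macaca fascicularis (cynomolgus monkey) ovary in which transcripts of SOST, CRYM, TOX3 and HS3ST3A1 were found together. Of 20967 cell barcodes, 17943 held at least 1000 unique molecular identifiers (UMIs, one per counted RNA molecule). Of these, 1316 were kept (7.33%, exact 95% binomial interval 6.96–7.73). A cell was kept if it held at least 4 UMIs of the 4 genes, from at least 2 of them, and more such UMIs than those of either of 2 other gene sets. These sets were INHBB, COL4A3, COL4A4 and PLXNC1, and LYPD1, CBLN2, RGS4 and HEY2. Cells with 20 or more UMIs of COL1A1, COL1A2 and COL3A1 per 10000 were left out to remove stroma, and cells with a DAZL UMI to remove germ cells. The levels of these genes therefore chose the cells, and their values are given as a description.

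Each library of droplet 3′ RNA sequencing held the pooled, enzymatically dissociated pair of ovaries of 1 fetus, 1 library from E84 (day of embryonic development) and 1 from E116, and no treatment or transgene was involved. The deposited table holds the cells of both libraries under barcodes that end in 1 or 2, and it does not tie an ending to a stage. The cells were therefore treated together as a single pooled sample, and the endings, called barcode set 1 and barcode set 2 here, served only as unlabelled technical batches. Without replicates no test was made. Intervals reflect counting error alone and leave out the variation from fetus to fetus. Of the 1316 cells, 975 were in barcode set 1 and 341 in barcode set 2.

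Pregranulosa cells are the supporting cells of the fetal ovary. They surround the germ cells, and some later enclose single oocytes as the granulosa cells of primordial follicles. In mammals they arise from the coelomic (surface) epithelium of the gonad, and the R-spondin and WNT pathway drives their ovarian fate through beta-catenin. Sclerostin, the product of SOST, is a secreted antagonist that binds the WNT co-receptors LRP5 and LRP6. CRYM encodes mu-crystallin, which binds thyroid hormone in the cytosol, TOX3 a chromatin protein of the HMG-box family, and HS3ST3A1 a heparan sulfate sulfotransferase.

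Most of the cells carried 3 or 4 of the genes. The 4 genes together gave 4 to 50 UMIs per cell with a median of 8, and 436 cells (33.1%) held all 4 of them, 567 held 3 and 313 held 2. SOST was seen in 84.5% of the cells, TOX3 in 84.0%, CRYM in 75.3% and HS3ST3A1 in 65.6%. Median depth was 7540.5 UMIs per cell (6063 in barcode set 1 and 13205 in barcode set 2), with a median of 10.4% mitochondrial UMIs.

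The edge of the rule was not a gap in the data. Among cells that met its other conditions, 175 held 3 UMIs of the genes and 172 held 4. SOST stood at 158 CPM (UMIs per 1000000 of the group's total) in the cells with 3 UMIs and at 185 CPM in those with 4, and KITLG, which the rule does not use, at 234 and 233 CPM. The collagen limit left out 736 further cells with the markers, the DAZL limit 415, the other gene sets 189, and 50 more had all their UMIs from 1 gene.

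**Figure D1:**
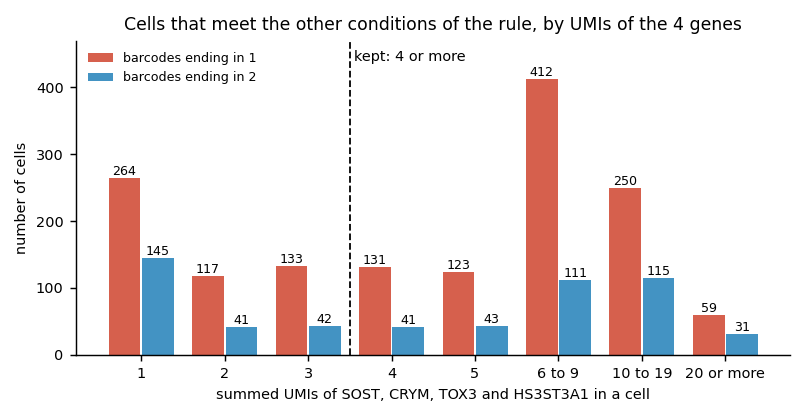
Number of cells (y axis) by the summed UMIs of SOST, CRYM, TOX3 and HS3ST3A1 in a cell (x axis), for barcode sets 1 and 2, among cells that meet the other conditions of the rule (at 1 UMI, no second gene can be asked for). The dashed line is the limit of 4 UMIs, and the 175 cells just below it and the 172 just above it are alike in number.

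SOST and HS3ST3A1 differed between the barcode sets more than CRYM and TOX3. SOST stood at 382 CPM (exact 95% Poisson interval 369–396, 3268 UMIs) in the cells of barcode set 1 and at 159 CPM (149–170, 886 UMIs) in barcode set 2. HS3ST3A1 stood at 171 CPM (163–180) and 55.9 CPM (49.9–62.5). CRYM and TOX3 were closer, with 210 and 175 CPM for CRYM and 277 and 227 CPM for TOX3. In the surface epithelium cells described further on, all 4 genes were lower, with SOST at 112 and 47.2 CPM and TOX3 at 108 and 101 CPM, but those cells had to fail the rule. The limit of 4 UMIs asks for a higher rate in shallower cells. The 4 genes gave a median of 7 UMIs per cell in barcode set 1 and 8 in barcode set 2, but 11.4 and 6.62 per 10000 UMIs. The part of depth in these levels was not tested, and stage, fetus and library cannot be told apart here.

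Each of the 4 genes was also higher in cells chosen without it. The 4 genes themselves were chosen with results of these data known, so this is partly set by that choice and is given as a description. Cells were chosen again with each gene left out in turn, by at least 3 UMIs of the other 3 genes. SOST then stood at 258 CPM (248–267, 1077 cells), against 52.8 CPM in the 6917 other cells under the same collagen and DAZL limits, a fold of 4.88 (4.61–5.15). The fold was 4.42 for HS3ST3A1 (112 against 25.3 CPM), 3.75 for TOX3 (231 against 61.7 CPM) and 3.11 for CRYM (163 against 52.3 CPM). Within each barcode set every one of the 4 genes was also higher in the cells chosen without it, by 2.92 to 3.19 times in barcode set 1 and by 2.39 to 3.86 times in barcode set 2.

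**Figure D2:**
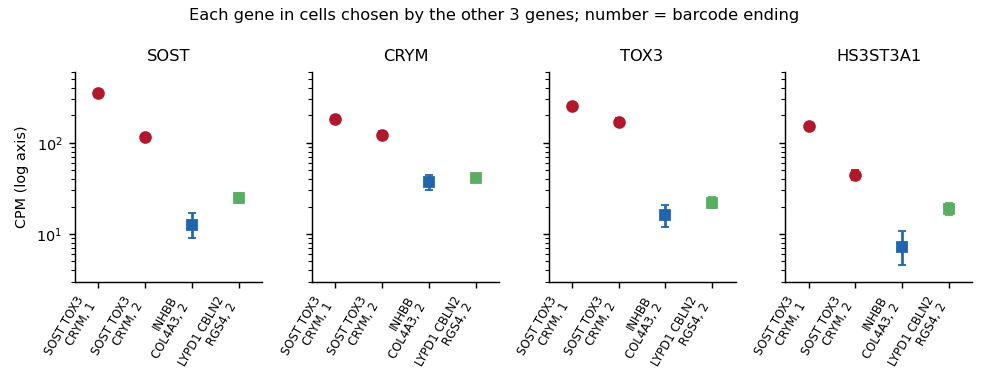
CPM on a log axis of each of the 4 genes in cells chosen by the other 3 genes (circles, by barcode set) and in the INHBB COL4A3 and LYPD1 CBLN2 RGS4 cells of barcode set 2 (squares), with exact 95% Poisson intervals. All circles lie above both squares of their panel. The 2 comparison groups had to hold fewer UMIs of the 4 genes than of their own, so their low values are partly set by the rule.

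Free RNA can put UMIs of a gene into droplets of cells that do not express it, so SOST was also counted in cell types that should lack it. SOST helped to choose the cells and the other cell types were taken outside the rule, so the gap between them is partly set by the rule. Erythroid cells held a median of 309 genes at 4996 UMIs, so their shares may understate free RNA. With each cell thinned to 1000 UMIs, 35.5% of the SOST TOX3 CRYM cells of barcode set 1 held a SOST UMI (32.5–38.6), against 1.54% of 390 erythroid cells (0.567–3.32) and 1.15% of 87 endothelial cells (0.0291–6.24). In barcode set 2 the shares were 20.5% (16.4–25.2), 0.508% of 197 erythroid cells and 0.361% of 277 endothelial cells. Before thinning, SOST was seen in 90.1% of the cells of barcode set 1 at a median depth of 6063 UMIs and in 5.38% of the erythroid cells at 5916.5 UMIs, and in barcode set 2 in 68.6% at 13205 UMIs and 0.508% at 3645 UMIs. Other cell types of barcode set 1 lay between these, with 10.8% of stromal cells, 9.96% of surface epithelium cells and 4.52% of germ cells after thinning. For KITLG the thinned share was 28.2% of the SOST TOX3 CRYM cells against 0.681% of 587 erythroid cells.

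2 other granulosa groups were chosen by the same rule with the gene sets exchanged. INHBB COL4A3 cells numbered 315 and LYPD1 CBLN2 RGS4 cells 751, but only 8 and 2 of them were in barcode set 1. Values against these groups are therefore given within barcode set 2 (341, 307 and 749 cells), which all groups share, and the counts over all cells beside them. Mitochondrial UMIs were at a median of 12.5% in the 341 cells, 19.1% in the INHBB COL4A3 cells and 15.1% in the LYPD1 CBLN2 RGS4 cells, and their part in the results was not tested. With at most 10% mitochondrial UMIs, 583 SOST TOX3 CRYM cells were left against 19 and 51, and the ratio over INHBB COL4A3 cells over all cells turned for several genes given here. These were RSPO1, WNT2B, ESR1, LHX9, NR2F1, NBL1, SFRP2, PTGDS, CDH7, MSLN, UPK3B and KRT19, and MSLN also turned against LYPD1 CBLN2 RGS4 cells. The limit also changed the mix of barcode sets. Of the cells left, 504 of the 583, 6 of the 19 and 2 of the 51 were in barcode set 1. INHBB COL4A3 cells of barcode set 1 held a median of 16.6 UMIs of surface epithelium genes (described further on) per 10000, against 0.907 in barcode set 2. The part of this mix was not tested.

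A gene was counted as higher or lower if it differed at least 2-fold with 5 CPM added, among genes with at least 10 CPM in either group. Over all cells, 545 genes were higher than in INHBB COL4A3 cells (6.23% of those compared) and 293 lower (3.35%), and 380 were higher than in LYPD1 CBLN2 RGS4 cells (4.33%) and 332 lower (3.78%). Within barcode set 2 the counts were 532 (6.12%) and 271 (3.12%) against the first group and 267 (3.09%) and 266 (3.07%) against the second. There, 221 genes were higher than in both groups and 90 lower than in both.

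Surface epithelium cells formed the third comparison. These were 634 cells (251 in barcode set 1 and 383 in barcode set 2) outside the other groups, with at least 4 UMIs from a list of 12 ovarian surface epithelium genes, from 2 or more of them. This comparison was added after the data were seen. It gave far fewer differences, which is partly set by the choice of cells. Of the 1316 SOST TOX3 CRYM cells, 667 also held at least 4 UMIs of that list from 2 or more genes. The surface epithelium cells were taken from those left after the rule, so the 2 groups overlap in this trait. In barcode set 1, 112 genes were higher in SOST TOX3 CRYM cells (1.27%) and 120 lower (1.37%). In barcode set 2, 46 were higher (0.537%) and 23 lower (0.269%).

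Granulosa identity genes were present, but most of them stood at like levels in the surface epithelium cells, as did most of all genes compared. At least 4 UMIs from 2 genes of the list were found in 96.2% of the SOST TOX3 CRYM cells, in 71.7% of the INHBB COL4A3 cells, in 90.8% of the LYPD1 CBLN2 RGS4 cells and in 89.9% of the surface epithelium cells. Such shares also depend on depth. The median rate of the list was 18.8, 10.4, 11.7 and 15.9 UMIs per 10000, in the same order. Against INHBB COL4A3 cells in barcode set 2, 8 of the 15 genes compared were higher and 1 was lower. Against LYPD1 CBLN2 RGS4 cells 5 of 15 were higher and none lower. The median log2 ratio of the list was 1.30 and 0.75, against 0.12 and 0.05 for all genes compared. Against surface epithelium cells 1 of 15 was higher in barcode set 1 and none in barcode set 2, with none lower in either. Of all genes compared there, 1.27% were higher and 1.37% lower in barcode set 1, and 0.537% and 0.269% in barcode set 2. So few genes of any kind differed that these counts tell nothing particular about the list.

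KITLG was the only granulosa gene past 2-fold against the surface epithelium, and only in barcode set 1. It encodes the ligand of the KIT receptor of germ cells. Its level was 351 CPM (338–364) in barcode set 1 and 232 CPM (220–245) in barcode set 2, against 119 and 150 CPM in the surface epithelium cells. The fold was 2.94 (2.57–3.39) in the first barcode set and 1.55 (1.41–1.71) in the second. The level in INHBB COL4A3 cells was 115 CPM and in LYPD1 CBLN2 RGS4 cells 124 CPM.

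Of the granulosa identity genes that were higher than in INHBB COL4A3 cells, EMX2, LHX9, IRX3, WT1, NR0B1 and NR2F1 encode transcription factors. Of these, LHX9, IRX3 and NR0B1 were also past 2-fold over LYPD1 CBLN2 RGS4 cells. EMX2, needed for the genital ridge, stood at 393 CPM against 147 CPM in INHBB COL4A3 cells, a fold of 2.67 (2.41–2.95), but only 1.29 times above LYPD1 CBLN2 RGS4 cells. LHX9, a factor of the early gonad, was at 22.4 CPM against 2.82 and 6.14 CPM, and IRX3, which acts in pregranulosa cells, at 130 against 29.8 and 49.2 CPM. WT1, a factor of the coelomic epithelium and of supporting cells, was at 376 CPM against 131 and 196 CPM. In the surface epithelium cells of the same barcode set EMX2 lay at 386 CPM, LHX9 at 23.7 CPM, IRX3 at 106 CPM and WT1 at 315 CPM.

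The defining granulosa markers were uneven. AMHR2, the receptor of anti-Müllerian hormone, was at 147 CPM in barcode set 1 and 213 CPM in barcode set 2, below the 280 CPM of LYPD1 CBLN2 RGS4 cells. FST, an inhibitor of activin, was at 84.1 CPM in barcode set 2 against 374 CPM in INHBB COL4A3 cells. FOXL2, a factor that keeps granulosa cells from a testis fate, gave only 39 UMIs in all 1316 cells (2.76 CPM) and stood under 5 CPM in both granulosa groups and in the surface epithelium. GATA4, another gonadal transcription factor of the list, was at 2.87 CPM in barcode set 2, too low to be compared. SOX9, the testis factor, was at 0.538 CPM in barcode set 2.

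Genes of later granulosa cells were low. Of 10 such genes compared with INHBB COL4A3 cells, 7 were lower and 1 higher, with a median log2 ratio of −2.84. CYP19A1, the aromatase that makes estrogen, stood at 4.48 against 106 CPM and was 23.6 times higher in those cells (15.7–37.0). AMH, anti-Müllerian hormone, was at 2.87 against 92.1 CPM, INHA, the inhibin alpha chain, at 21.0 against 206 CPM, and NR5A2, a nuclear receptor of granulosa cells, at 6.81 against 124 CPM. FSHR, the receptor of follicle-stimulating hormone, was at 11.8 against 43.9 CPM. PGR, the progesterone receptor, was the higher one with 66.5 against 21.9 CPM. Against LYPD1 CBLN2 RGS4 cells 1 of 8 was lower, AMH at 2.87 against 16.3 CPM. Against surface epithelium cells none passed 2-fold in either barcode set, where few of all genes did.

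Among WNT pathway genes in barcode set 2, 1 of 3 R-spondin and LGR receptor genes, RSPO1, and 1 of 7 target genes, LEF1, were higher than in both granulosa groups, and none of either list was lower. The ligand helper RSPO1, which raises WNT receptor levels at the membrane, stood at 65.4 CPM in barcode set 2, against 9.71 CPM in INHBB COL4A3 cells (6.74-fold, 4.66–10.1) and 8.38 CPM in LYPD1 CBLN2 RGS4 cells (7.81-fold, 6.16–9.99). LEF1, a factor that partners beta-catenin and is itself a target, was at 176 CPM against 17.5 and 28.7 CPM, folds of 10.0 (7.67–13.4) and 6.13 (5.38–7.01). AXIN2, another target, was nearer, with 35.5 CPM against 24.1 and 21.2 CPM.

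Of the WNT ligands and receptors, 3 of 9 were higher than in INHBB COL4A3 cells and none lower. They were the ligand WNT2B (31.9 against 7.21 CPM) and the receptors ROR1 (32.8 against 7.52 CPM) and ROR2 (13.3 against 1.25 CPM). ROR2 alone was also higher than in LYPD1 CBLN2 RGS4 cells, which had 2.92 CPM. WNT4, a ligand of ovarian fate in the mouse, was at or under 1.25 CPM in the 3 granulosa groups of barcode set 2. LGR4, a receptor of R-spondins, was at 90.7 CPM against 109 and 117 CPM.

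Secreted WNT antagonists split evenly. SFRP1, WIF1 and SOSTDC1 were higher than in both granulosa groups, and DKK3, SFRP4 and FRZB lower than in both, among 6 genes compared, whose median log2 ratio was 0.07 and −0.15. SFRP1 was at 630 CPM against 272 and 232 CPM, and WIF1, which binds WNT ligands, at 208 against 36.7 and 58.8 CPM. SOSTDC1, a relative of sclerostin, was at 10.4 CPM against 0.313 and 1.95 CPM. SFRP4 stood at 3.76 CPM against 123 CPM in INHBB COL4A3 cells and 110 CPM in LYPD1 CBLN2 RGS4 cells, 32.7 and 29.4 times lower. DKK3 was at 18.5 against 182 and 84.2 CPM. WIF1 was also unequal within the cells, at 43.8 CPM in barcode set 1. In cells with under 5 surface epithelium UMIs per 10000, its ratio over INHBB COL4A3 cells of both barcode sets turned, to a log2 of −0.26.

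Against the surface epithelium these genes did not separate the cells in the same way. RSPO1 was at 70.6 CPM and LEF1 at 143 CPM in the surface epithelium cells of barcode set 2, and SFRP1 at 858 CPM and WIF1 at 267 CPM, at or above the SOST TOX3 CRYM cells for all but LEF1. In barcode set 1, WNT6 was 3.22 times higher in SOST TOX3 CRYM cells (83.6 against 26.0 CPM, 2.40–4.40) and WNT2B 2.64 times lower (24.8 against 65.5 CPM, 2.09–3.32). In barcode set 2, WNT6 was at 63.5 against 42.0 CPM and WNT2B at 31.9 against 50.7 CPM, both short of 2-fold. Cyclin D1 (CCND1), a WNT target in many tissues, was the only gene of the target list to pass there, with 20.3 against 6.10 CPM.

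**Figure D3:**
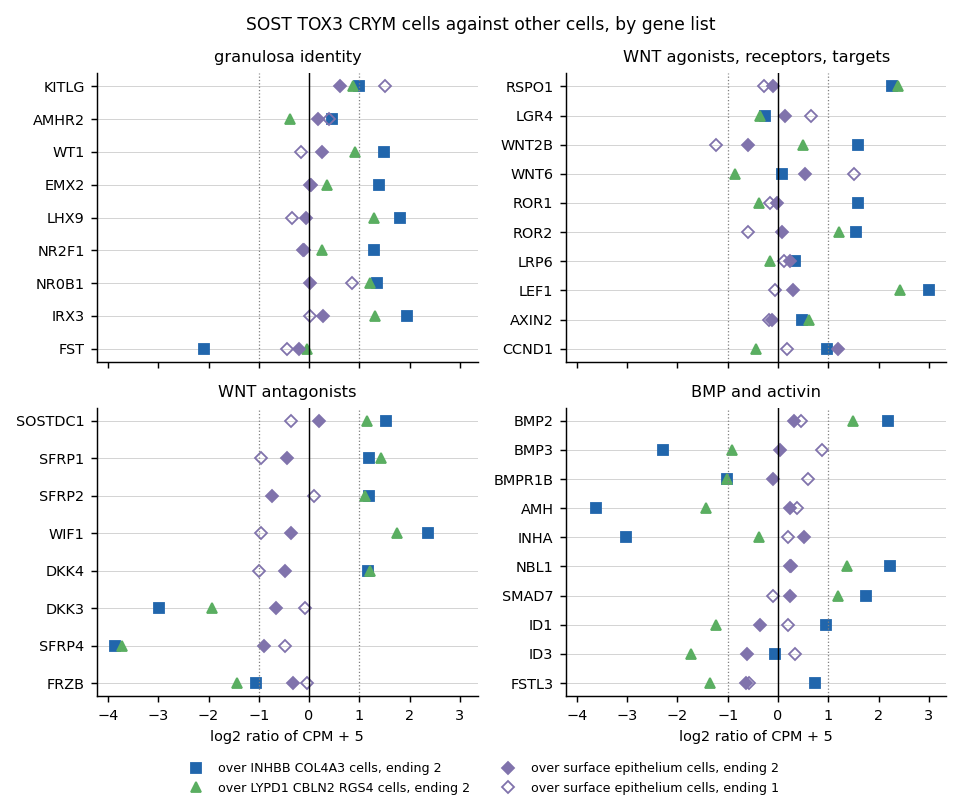
Log2 ratio of CPM with 5 CPM added (x axis) of SOST TOX3 CRYM cells over INHBB COL4A3 cells, LYPD1 CBLN2 RGS4 cells and surface epithelium cells, for genes of 4 lists, chosen after their values were seen. Dotted lines mark 2-fold. LEF1, RSPO1, BMP2 and WIF1 lie beyond 2-fold against both granulosa groups, and SFRP4 and AMH beyond 2-fold on the other side, while most diamonds (surface epithelium) lie between the dotted lines.

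BMP pathway genes were split too. BMP2, a ligand of pregranulosa cells, stood at 144 CPM against 27.9 CPM in INHBB COL4A3 cells (5.17-fold, 4.15–6.52) and 48.4 CPM in LYPD1 CBLN2 RGS4 cells (2.98-fold, 2.66–3.34). NBL1, a BMP antagonist, was at 146 against 27.3 and 53.5 CPM, and SMAD7, an inhibitor inside the cell, at 24.6 against 3.76 and 7.99 CPM. BMPR1B, a receptor, was lower at 78.5 against 163 and 165 CPM. The BMP targets ID1 and ID3 were at 132 and 167 CPM, against 316 and 563 CPM in LYPD1 CBLN2 RGS4 cells. Of 25 genes of the list, 4 were higher and 5 lower than in INHBB COL4A3 cells, and 3 higher and 5 lower than in LYPD1 CBLN2 RGS4 cells, with medians of 0.45 and −0.04.

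NOTCH pathway genes went different ways against the granulosa groups. Against INHBB COL4A3 cells 2 of 10 were higher, the ligand DLL4 (10.2 against 0.313 CPM) and the target HEY1 (34.1 against 13.2 CPM), and 1 was lower, the receptor NOTCH3 (9.32 against 24.4 CPM), with a median log2 ratio of 0.21. In the same comparison 6 of 7 endothelial genes were higher, and 18 of the 341 cells held at least 4 endothelial UMIs from 2 genes. DLL4 was lower in barcode set 1 than in barcode set 2, as were 6 of 7 endothelial genes. The part of endothelial RNA in the level of DLL4 was not tested. Against LYPD1 CBLN2 RGS4 cells 5 of 12 were lower and 1 higher, with a median of −0.89. There NOTCH3 stood at 9.32 against 103 CPM, the ligand JAG1 at 24.4 against 109 CPM and the targets HES4 and HEYL at 2.51 against 46.5 and 9.86 against 68.4 CPM. HEY2, another target, is part of the rule for that group. HES1 was at 385 against 800 CPM in barcode set 2, but at 1224 CPM in the SOST TOX3 CRYM cells of barcode set 1, where the surface epithelium cells had 509 CPM.

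Genes that act with the products of CRYM and HS3ST3A1 were compared as 2 lists in barcode set 2. Few of all genes were higher there, 6.12% over INHBB COL4A3 cells and 3.09% over LYPD1 CBLN2 RGS4 cells. A count of none in so short a list is near those shares. The median log2 ratio of the heparan sulfate synthesis list was −0.15 and −0.31, against 0.12 and 0.05 for all genes compared. Of 10 other heparan sulfate synthesis genes compared with INHBB COL4A3 cells none was higher and 1 lower, HS6ST1 at 73.8 against 226 CPM. Of 11 compared with LYPD1 CBLN2 RGS4 cells none was higher and 3 were lower, the sulfatases SULF1 (35.8 against 166 CPM) and SULF2 (12.4 against 33.6 CPM) and the heparanase HPSE (3.58 against 31.8 CPM). The thyroid hormone receptor THRB was at 6.63 against 69.2 CPM in the same comparison, the only 1 of 3 thyroid hormone genes to pass.

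Cell cycle genes were compared as a G2 and M phase list and an S phase list. Against INHBB COL4A3 cells, of 16 genes of G2 and M phase, 12 were lower and none higher in barcode set 2, with a median log2 ratio of −1.35 against 0.12 for all genes compared. MKI67, a marker of dividing cells, stood at 12.7 against 88.0 CPM and TOP2A, a topoisomerase, at 64.3 against 215 CPM. Against LYPD1 CBLN2 RGS4 cells 1 of 13 was higher, CENPF at 110 against 35.4 CPM, and none lower. The median log2 ratio there was 0.55, against 0.05 for all genes compared. Of 15 S phase genes, 2 were lower and none higher than in INHBB COL4A3 cells, with a median of −0.33 and a summed level of 470 against 547 CPM. Against the surface epithelium cells, 10 of 17 G2 and M phase genes were lower in barcode set 1, with MKI67 at 28.4 against 69.8 CPM, and none of 14 in barcode set 2, where the median was −0.33.

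Steroid receptors and matrix genes went different ways. ESR1, the estrogen receptor alpha, was at 100 CPM against 26.6 and 30.8 CPM in barcode set 2, folds of 3.76 (2.99–4.78) and 3.25 (2.83–3.75), and NR3C1, the glucocorticoid receptor, at 67.4 against 17.9 and 53.2 CPM. Of the basement membrane genes 1 of 9 was higher and 3 lower than in INHBB COL4A3 cells, and none of 10 higher and 5 lower than in LYPD1 CBLN2 RGS4 cells, with medians of −0.58 and −0.94. LAMC1, a laminin chain, stood at 56.5 against 258 and 151 CPM and COL4A1, a collagen of basement membranes, at 14.0 against 71.4 and 58.7 CPM.

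Across all genes, 25 were named by how far they lay above both granulosa groups, 23 of them with a symbol, and 15 by how far they lay below. Within barcode set 2, 22 of the 25 and all 15 were past 2-fold against both groups. The granulosa groups lay almost wholly in barcode set 2 and the same direction was asked for there, so these counts are largely set by the choice. KISS1, which encodes kisspeptin, stood at 280 CPM in barcode set 2, against 18.5 and 23.1 CPM, folds of 15.2 (11.7–20.0) and 12.1 (10.6–14.0). It stood at 1325 CPM in the SOST TOX3 CRYM cells of barcode set 1. PTGDS, a prostaglandin D synthase, was at 1767 CPM against 149 and 290 CPM, and PTGER4, a prostaglandin receptor, at 89.4 against 5.95 and 11.8 CPM.

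The named genes were of several kinds. The cadherin CDH7 was at 32.3 CPM against 1.57 and 4.19 CPM, the neuropeptide ADCYAP1 at 51.4 against 4.70 and 8.18 CPM, the receptor FGFR2 at 59.0 against 11.6 and 10.5 CPM, and RELN, which encodes the secreted protein reelin, at 66.3 against 6.27 and 7.02 CPM. MBNL3, a splicing regulator, stood at 539 against 75.8 and 75.7 CPM. The phosphatase DUSP2, an immediate early gene, was at 227 against 44.8 and 84.9 CPM. Below both groups, next to SFRP4, lay MKX, a homeobox gene of tendon, with 4.84 against 67.4 and 49.0 CPM. PPARG, a nuclear receptor of fat and follicle cells, stood at 7.53 against 91.5 and 51.0 CPM. The norrin gene NDP was at 12 against 126 and 54.5 CPM, and HOPX, a homeodomain-only gene, at 32.8 against 306 and 229 CPM.

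**Figure D4:**
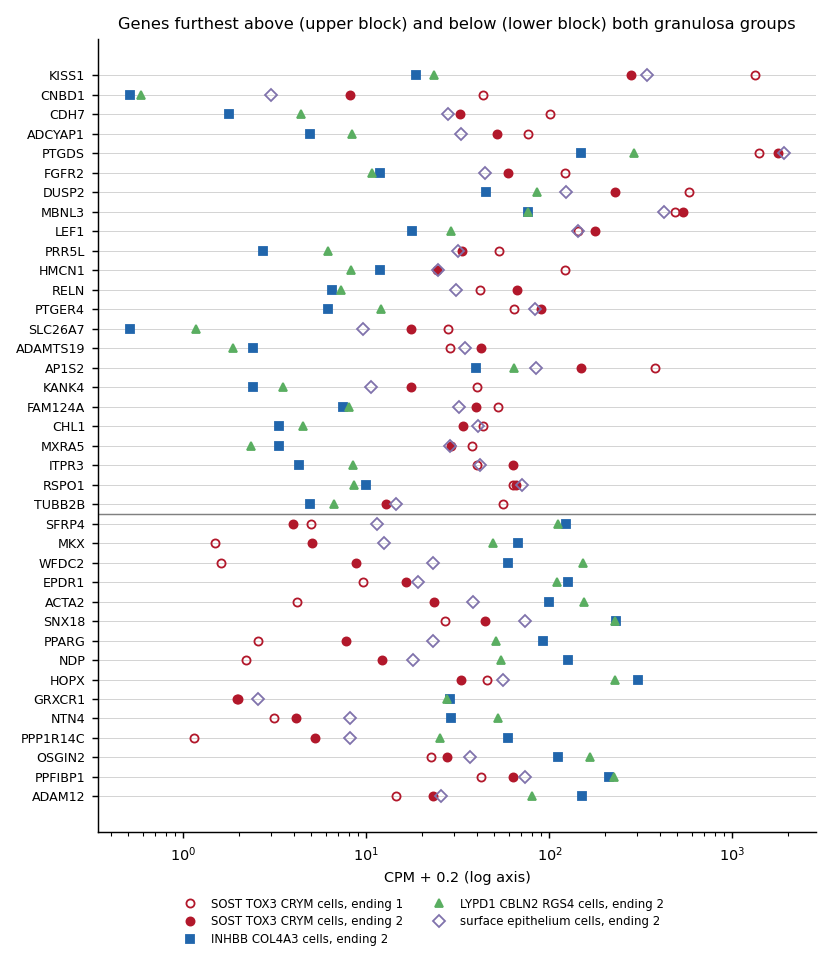
CPM with 0.2 added, on a log axis, of the named genes that have a symbol, in SOST TOX3 CRYM cells by barcode set and in the 3 comparison groups with barcode set 2. The upper block lies above and the lower block below both granulosa groups, and in most rows of the upper block the surface epithelium cells (diamonds) lie beside the SOST TOX3 CRYM cells, as for LEF1, PTGDS and RSPO1.

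Most of the leading genes were also found in the surface epithelium cells, against which few of all genes compared were past 2-fold. KISS1 stood at 2522 CPM there in barcode set 1 and 343 CPM in barcode set 2, and PTGDS at 2497 and 1906 CPM, all above the SOST TOX3 CRYM cells of the same barcode set. MBNL3 was at 551 and 421 CPM and CDH7 at 99.6 and 27.7 CPM, within 1.28-fold. RELN was 2.17 times higher in SOST TOX3 CRYM cells of barcode set 2 (1.78–2.68) and 1.05 times higher in barcode set 1. DUSP2 was 3.31 times higher in barcode set 1 (579 against 175 CPM, 2.96–3.72) and 1.83 times higher in barcode set 2. Some of these genes were also found in stromal cells. Over both barcode sets KISS1 stood there at 541 CPM, PTGDS at 700 CPM and DUSP2 at 228 CPM, the last above the 139 CPM of the surface epithelium cells. RELN was at 10.2 CPM in stromal cells, against 33.2 CPM in surface epithelium cells.

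Surface epithelium genes were also present in many of the SOST TOX3 CRYM cells, so the label of pregranulosa cells does not hold for all of them by these markers. At least 4 UMIs of the 12-gene list from 2 genes were found in 667 cells (50.7%), which was 39.5% of those of barcode set 1 and 82.7% of barcode set 2. The share was 16.0% of INHBB COL4A3 cells and 45% of LYPD1 CBLN2 RGS4 cells in barcode set 2. Such shares rise with depth, and median depth was 6063 and 13205 UMIs in the SOST TOX3 CRYM cells of barcode sets 1 and 2. It was 7673 and 9884 UMIs in the other 2 groups of barcode set 2. The median rate of the list was 4.14 and 8.73 UMIs per 10000 in the SOST TOX3 CRYM cells of barcode sets 1 and 2. In those other groups it was 0.907 and 3.72. The summed level of the list was 686 CPM in barcode set 1 and 1044 CPM in barcode set 2, against 1725 and 1700 CPM in the surface epithelium cells. Against the surface epithelium cells, which the list chose, 5 of 9 genes compared were lower in barcode set 1 and 3 of 8 in barcode set 2. None was higher. MSLN and UPK3B were lower in both barcode sets and KRT19 in barcode set 1 alone. MSLN (mesothelin) stood at 112 and 124 CPM, UPK3B (uroplakin 3B) at 63.3 and 58.8 CPM, and the keratin KRT19 at 211 and 529 CPM. In barcode set 2, 6 of the 12 genes were high enough to be compared with the granulosa groups. All 6 were higher than in INHBB COL4A3 cells and 4 of 6 higher than in LYPD1 CBLN2 RGS4 cells, KRT19 not among those 4.

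The cells were therefore divided by their rate of surface epithelium UMIs, a range with no break in it, in which 217 cells lay between 4 and 6 per 10000. In barcode set 1, 234 cells had a rate under 2 and 39 a rate of 20 or more. KITLG stood at 395 CPM (364–428) in the first and 49.0 CPM (33.3–69.6) in the second, and DUSP2 at 899 and 69.6 CPM. Of the genes that chose the cells, SOST was at 466 and 119 CPM and CRYM at 329 and 38 CPM. TOX3 was at 270 and 152 CPM and HS3ST3A1 at 184 (163–207) and 158 CPM (129–192). In the opposite direction, KISS1 was at 601 CPM (563–641) in the cells with the lowest rate and 3194 CPM (3057–3337) in those with the highest, PTGDS at 731 and 3621 CPM, and RSPO1 at 42.7 and 120 CPM. Genes of other cell types moved along this range as well. The stromal gene DCN was at 1501 CPM in the cells with the lowest rate and 109 CPM in those with the highest, the germ cell gene DDX4 at 48 and 19 CPM and the globin HBB at 17363 and 114 CPM, and their part in these levels was not tested.

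In barcode set 2 the order was kept for some of these genes. PTGDS went from 151 CPM in 35 cells with a rate under 2 to 3455 CPM in 38 cells with a rate of 20 or more, KISS1 from 66.5 to 713 CPM and WT1 from 178 to 446 CPM. KITLG went from 231 to 61 CPM, with its highest value of 369 CPM at a rate of 2 to 5. SOST was at 77.4 CPM in the first and 35.8 CPM in the last of these ranges, with its highest value of 235 CPM at a rate of 5 to 10. TOX3 went the other way from barcode set 1, from 77.4 to 248 CPM. Median depth was 5544 and 16717 UMIs at the ends of the range in barcode set 1, and 13066 and 19066 UMIs in barcode set 2. The part of depth in these levels was not tested.

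**Figure D5:**
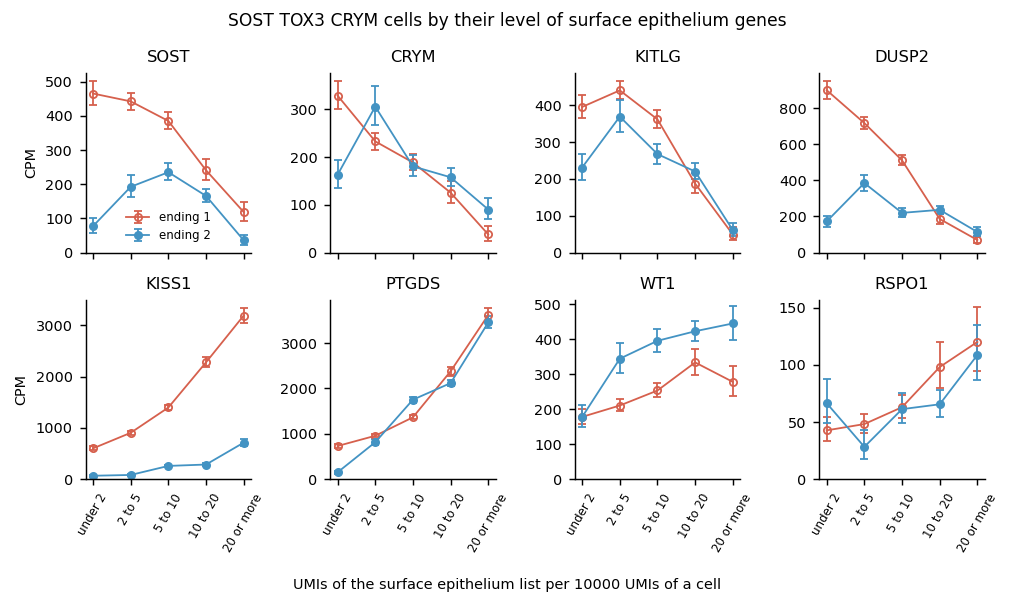
CPM (y axes) of 8 genes in SOST TOX3 CRYM cells grouped by their surface epithelium UMIs per 10000 (x axis), for barcode set 1 (open) and barcode set 2 (filled), with exact 95% Poisson intervals. KITLG and DUSP2 are lowest in the last group and KISS1 and PTGDS highest, in both barcode sets.

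Other cell types left traces in the cells. Germ cell genes other than DAZL gave at least 2 UMIs in 488 cells (37.1%), and the summed germ cell list stood at 221 CPM in barcode set 1 and 129 CPM in barcode set 2, against 225 and 124 CPM in surface epithelium cells. DDX4, a defining germ cell gene, was at 36.7 and 24.6 CPM. DCN, a stromal proteoglycan gene that the rule does not use, was at 1132 and 609 CPM, against 372 CPM in INHBB COL4A3 cells and 321 CPM in LYPD1 CBLN2 RGS4 cells of barcode set 2. HBB, a globin, was at 3811 CPM in barcode set 1 and 189 CPM in barcode set 2. At least 4 UMIs from 2 genes of the stroma list, which holds collagens of the rule, were found in 1280 cells (97.3%), against 60.3% of INHBB COL4A3 cells and 92.1% of LYPD1 CBLN2 RGS4 cells in barcode set 2. For pericyte and smooth muscle genes this held in 382 cells (29.0%), with 45.2% in barcode set 2 against 33.6% of INHBB COL4A3 cells and 72.8% of LYPD1 CBLN2 RGS4 cells. Depth differs between these groups and raises such shares. In barcode set 2 the median rates of the stroma list were 18.4, 7.77 and 16.4 UMIs per 10000, in the same order of groups. Those of the pericyte and smooth muscle list were 3.85, 3.66 and 11.8. At least 4 erythroid UMIs from 2 genes were found in 10 cells, all of barcode set 1, and 4 endothelial UMIs from 2 genes in 26 cells, 18 of them of barcode set 2. Macrophage genes reached that level in 1 cell. Within barcode set 2, 6 of 7 endothelial genes were higher than in INHBB COL4A3 cells and 5 of 7 higher than in the surface epithelium cells. Among the cells, 39 (2.96%) had high doublet scores and 5 carried a barcode sequence that occurs in both barcode sets. The part of each in the results was not tested.

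Between the barcode sets of the SOST TOX3 CRYM cells themselves, 246 genes were higher in barcode set 1 (2.79%) and 212 lower (2.4%). The immediate early genes DUSP2, IER2 and EGR4 were higher in barcode set 1, as 3 of 15 genes of a list of immediate early and heat shock genes, with none lower. DUSP2 was at 579 against 227 CPM and IER2 at 120 against 26.2 CPM. FOS, the best known of them, was at 4678 against 2803 CPM. Against the surface epithelium cells, 7 of 15 genes of that list were higher in barcode set 1 and none in barcode set 2, and against INHBB COL4A3 cells 8 of 15 in barcode set 2. Such genes are known to respond to tissue dissociation, and the part of dissociation was not tested.

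IGF binding protein genes were lower in barcode set 1, as 4 of 9 genes of the IGF axis. IGFBP2 stood at 142 against 705 CPM and IGFBP4 at 85.9 against 247 CPM. No granulosa identity gene of 15 passed 2-fold between the sets. Of genes outside the lists, BST2, chosen after its values were seen, was lower in barcode set 1 (68.3 against 612 CPM).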

How the data were processed

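The deposited values are raw UMI counts of 18446 genes (3213 under an Ensembl identifier) in 20967 cells, which the authors deposited without normalization. Their notes name Cell Ranger 3.0.2, the Macaca_fascicularis_5.0 genome and Seurat. Cell barcodes ending in 1 (barcode set 1) hold 59899960 UMIs (median 3130 per cell) and those ending in 2 (barcode set 2) hold 88924217 (median 4555.5). Neither doublets nor free RNA are said to have been removed. 27 barcode sequences occur with both endings. Scrublet called 1 and 2 doublets, so it had not worked, and the 8% with the highest scores were left out only as an alternative.

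Each level is the CPM of the UMIs added over a group's cells, with its exact 95% Poisson interval. Folds are ratios of CPM with exact conditional intervals and shares have Clopper-Pearson intervals. Lists were described by genes past 2-fold and their median. The named genes are those of the rule and lists, the 25 with the highest smaller ratio over both granulosa groups (at least 20 CPM) and the 15 with the lowest larger ratio, in the same direction within barcode set 2. Other comparison groups were cells outside the 3 granulosa groups, namely stroma (20 or more collagen UMIs per 10000), germ cells (2 or more DAZL and DDX4 UMIs) and the rest by 4 or more UMIs of their own marker list from 2 genes. The members and lists were chosen with earlier results of these data known. Intervals were tested on simulated counts. Software was numpy 2.4.6, scipy 1.17.1, scanpy 1.11.5 and matplotlib 3.10.9 under Python 3.11.15. Alternatives were other pseudocounts and filters, thinning, limits on genes, mitochondrial, germ cell and surface epithelium UMIs, doublet scores and each barcode set.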

Additional observations from a re-analysis of the deposited data

How the results depend on the processing

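No paired analysis was possible because the deposited table does not tie cells to a stage, and no test was made. Barcode set 1 alone gives no value against the granulosa groups, which have 8 and 2 cells there.

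The number of cells moved from 1316 to 394 with collagens below 10 per 10000, 747 with at most 3000 genes, 583 with at most 10% mitochondrial UMIs, 828 with at most 1 UMI of other germ cell genes, 667 with under 5 surface epithelium UMIs per 10000 (chosen after seeing the data) and 341 in barcode set 2.

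Genes higher and lower than in INHBB COL4A3 cells numbered 1241 and 504 when cells were thinned to 1000 UMIs and 208 and 148 with 20 CPM added, and 898 were higher with at most 3000 genes. Against LYPD1 CBLN2 RGS4 cells, 677 were higher after thinning and 635 with at most 3000 genes, 135 were higher and 168 lower with 20 CPM added, and 715 were lower with at most 10% mitochondrial UMIs. Against surface epithelium cells, higher and lower genes numbered 177 and 220 (1 CPM added), 42 and 29 (20 CPM added) and 232 and 263 (at most 3000 genes) in barcode set 1. In barcode set 2 they numbered 78 and 44, 7 and 5, 116 and 235, and 308 and 86 with the mitochondrial limit.

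In cells chosen without the gene, SOST was at 349 CPM in barcode set 1, 115 CPM in barcode set 2 and 320 CPM after thinning. CRYM was at 181, 122 and 233 CPM, TOX3 at 255, 171 and 244 CPM and HS3ST3A1 at 154, 44.3 and 142 CPM.

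Of 2706 log2 ratios of called list and named genes under 11 alternatives, 257 were under 2-fold. These were 83 of 246 under the mitochondrial limit, 50 of 246 with 20 CPM added and the rest under other alternatives. Of the 2706, 28 changed sign, 21 of them under the mitochondrial limit, which leaves 583 cells against 19 and 51. Of these cells, 504, 6 and 2 were in barcode set 1, so the limit also changed the mix of barcode sets.

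Under that limit the log2 ratio over INHBB COL4A3 cells became −0.20 for ALDH1A2, −0.68 for BNC1, −0.069 for CDH7, −0.37 for ESR1, −0.0078 for KDR, −0.69 for KRT19, −0.22 for LHX9, −1.53 for MSLN, −0.044 for NBL1, −0.16 for NR2F1, 0.044 for OSGIN2, −0.30 for PTGDS, −0.41 for RSPO1, −0.51 for SFRP2, −1.21 for UPK3B and −0.69 for WNT2B. Over LYPD1 CBLN2 RGS4 cells it became −0.0044 for BNC1, −0.75 for CLDN1, −1.15 for HBB, −0.65 for MSLN and −0.54 for TOP2A. With at most 3000 genes, CDH5 went to −0.038 over the first group, and HBB to −0.16 and TCF21 to −0.12 over the second. HBB was at −0.45 with the germ cell limit and −2.49 in barcode set 2. With under 5 surface epithelium UMIs, WIF1 went to −0.26 over INHBB COL4A3 cells and TCF21 to −0.18 over LYPD1 CBLN2 RGS4 cells. The cause was not tested.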
